A study of Mus musculus with 18 samples.

Results

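Cell cycle and DNA replication genes were examined in mouse embryonic stem cells (ESCs) made to depend on wild-type or mutant HDAC1 after a drug treatment. The 44 genes were given by name, in groups of known roles, with earlier results of these data known. They comprise 8 cyclins, 4 cyclin-dependent kinases, 6 genes of the E2F and Rb family, 10 genes of the MCM helicase and of origin licensing, 4 genes of DNA synthesis, 10 genes of mitosis and proliferation, and Mycn and Myc. All 44 were among the 53672 genes listed in the count tables and among the 18791 genes with enough counts to be tested.

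RNA was sequenced from E14TG2a ESCs of the genotype Hdac1/2lox/lox, grown on gelatine with serum and leukaemia inhibitory factor. HDAC1 and HDAC2 are closely related histone deacetylases that work inside several multiprotein complexes. Treatment of these cells with 4-hydroxytamoxifen (OHT, 1 µM) is designed to delete both endogenous genes, so that the cells would then rely on a stable rescue transgene. That transgene encoded wild-type HDAC1 (HDAC1-WT) or HDAC1 with 1 surface residue replaced (HDAC1-E63R or HDAC1-Y48E). By the description of the study, HDAC1-Y48E binds SIN3A and SIN3B but no other partner complex, while HDAC1-E63R keeps more partners. Each of the 3 lines was sequenced untreated and after 5 days with OHT according to the sample labels, with 3 libraries in each of the 6 groups. The methods instead describe a shorter pulse of OHT followed by further culture. All groups therefore carry the floxed alleles and a transgene, the untreated cells keep endogenous Hdac1 and Hdac2, and no group received the drug without the floxed alleles. The transgenes were integrated with a transposase, and whether each line is 1 clone or a pool was not given in the sources used here. Differences between lines therefore cannot be told apart from differences of derivation.

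As background, a cell prepares for S phase by loading the MCM helicase onto origins of replication. The origin recognition complex, CDC6 and CDT1 do this loading, and geminin blocks a second round. Cyclins D and E with their kinases phosphorylate the Rb family, which releases E2F factors to transcribe the genes of licensing and DNA synthesis. Cyclins A and B with CDK1 drive mitosis, in which BUB1, BUBR1 (encoded by Bub1b), Aurora kinases and PLK1 watch over and move the chromosomes. ESCs divide rapidly with a short first gap phase, and are known for high E2F activity through much of the cycle.

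Levels are given as normalised CPM, which are counts scaled to a library total of 1000000 and by TMM factors. Counts on genes ranged from 9019615 to 11454638 per library, and 3 counts, the upper limit that a count of 0 allows, corresponded to between 0.248 and 0.343 CPM, for counting error only. The third library of untreated HDAC1-E63R cells stood apart, with a TMM factor of 0.815 against 0.955 to 1.11 in the other 17 libraries. In that library 16.7% of the counts on genes fell on ribosomal protein genes, against 7.97% to 12.2% in the others. Its level of Mki67 was 185 CPM against 370.1 and 403 in the other libraries of the group, while its level of Gmnn was 186 against 101 and 90.3. Counts over the 44 genes that use this library are therefore also given without it. The log2 fold change of Hdac1 after OHT was -0.24 in HDAC1-WT, 0.22 in HDAC1-E63R and 0.14 in HDAC1-Y48E, and reads of the transgene may fall on this gene. That of Hdac2, which the transgene does not supply, was -0.66 ± 0.11 in HDAC1-WT (adjusted p = 0.0125 by edgeR), -0.21 ± 0.11 in HDAC1-E63R (adjusted p = 0.194) and -0.07 ± 0.11 in HDAC1-Y48E (adjusted p = 0.649). Neither gene passed the threshold in any line, so these counts, which are summed over whole genes, do not show the labelled deletion, least of all for Hdac2 in the mutant lines. The difference in the Hdac2 effect from HDAC1-WT was 0.59 for HDAC1-Y48E (adjusted p = 0.0105) and 0.45 for HDAC1-E63R (adjusted p = 0.102). OHT groups are therefore named by their labels throughout. The ESC markers Pou5f1, Sox2, Nanog, Zfp42, Esrrb, Utf1 and Dppa5a were all detected in every group.

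Promoter sequence was available for 34 of the 44 genes, in 38 RefSeq windows of GRCm38.p6 that run from 250 bases before to 50 bases after the annotated start. An E2F site, taken as TTTCCCGC, TTTGGCGC, TTTCGCGC or TTTGCCGC on either strand, was present in 13 of these 34 genes (38.2%), against 2.6% of all 27025 genes in the same set of windows. The NF-Y box CCAAT was present in 23 of the 34 genes, against 41.1% of all genes, and the cell cycle homology region TTTGAA in 13 of the 34, against 20.2%. The next sequences show how E2F sites are placed upstream of 7 genes whose transcripts behaved differently after OHT. Each is 100 bases, 5′ to 3′ along the gene, holds no annotated exon in GENCODE M21, and has the E2F sites in capitals. Runs of more than 8 capitals are overlapping sites on the 2 strands. Mcm5 (chr8:75109336-75109435, plus strand), Mcm6 (chr1:128359736-128359835, minus strand), Cdc6 (chr11:98907993-98908092, plus strand, within an intron of a longer transcript), Rbl1 (chr2:157204535-157204634, minus strand) and Mycn (chr12:12941940-12942039, minus strand) were lower after OHT in the HDAC1-Y48E line. Cdk1 (chr10:69352964-69353063, minus strand) did not pass the threshold there and E2f3 (chr13:29986064-29986163, minus strand) was higher.
Mcm5: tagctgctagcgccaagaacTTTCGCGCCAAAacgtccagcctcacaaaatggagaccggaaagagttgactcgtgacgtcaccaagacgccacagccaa
Mcm6: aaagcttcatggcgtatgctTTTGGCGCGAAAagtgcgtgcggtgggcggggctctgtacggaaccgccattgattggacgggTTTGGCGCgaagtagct
Cdc6: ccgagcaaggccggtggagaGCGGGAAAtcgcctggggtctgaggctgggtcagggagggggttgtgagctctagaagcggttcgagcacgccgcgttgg
Rbl1: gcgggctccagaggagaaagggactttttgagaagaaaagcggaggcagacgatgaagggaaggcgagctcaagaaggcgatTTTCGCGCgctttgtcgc
Mycn: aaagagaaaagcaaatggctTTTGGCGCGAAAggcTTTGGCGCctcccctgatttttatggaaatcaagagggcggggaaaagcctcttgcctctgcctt
Cdk1: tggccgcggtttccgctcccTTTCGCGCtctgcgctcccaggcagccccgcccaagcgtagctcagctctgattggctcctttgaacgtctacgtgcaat
E2f3: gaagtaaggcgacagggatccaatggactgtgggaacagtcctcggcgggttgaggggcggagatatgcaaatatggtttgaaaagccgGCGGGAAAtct

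After OHT, 26 of the 44 genes were lower and 4 were higher in the HDAC1-Y48E line. Those that fell include MCM subunits and loading factors, both large and small subunits of ribonucleotide reductase, Cdk2 and E2f1. Those that rose were Myc, Ccnd2, E2f3 and Rb1. At the same threshold (edgeR quasi-likelihood test, Benjamini-Hochberg adjusted p under 0.01), 14.7% of all genes tested were lower in this line and 16.2% were higher, against 59.1% and 9.09% of the 44. The median log2 fold change of the 44 was -0.55, against 0.05 for all genes tested, and 35 of the 44 had a negative value. With the study's second limit of more than a 2-fold change, 5 of the 44 were lower (Cdc6, Rrm2, Cdk2, Mcm3 and E2f1) and 2 were higher (Myc and Ccnd2), against 5.84% and 10.8% of all genes.

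**Figure D1:**
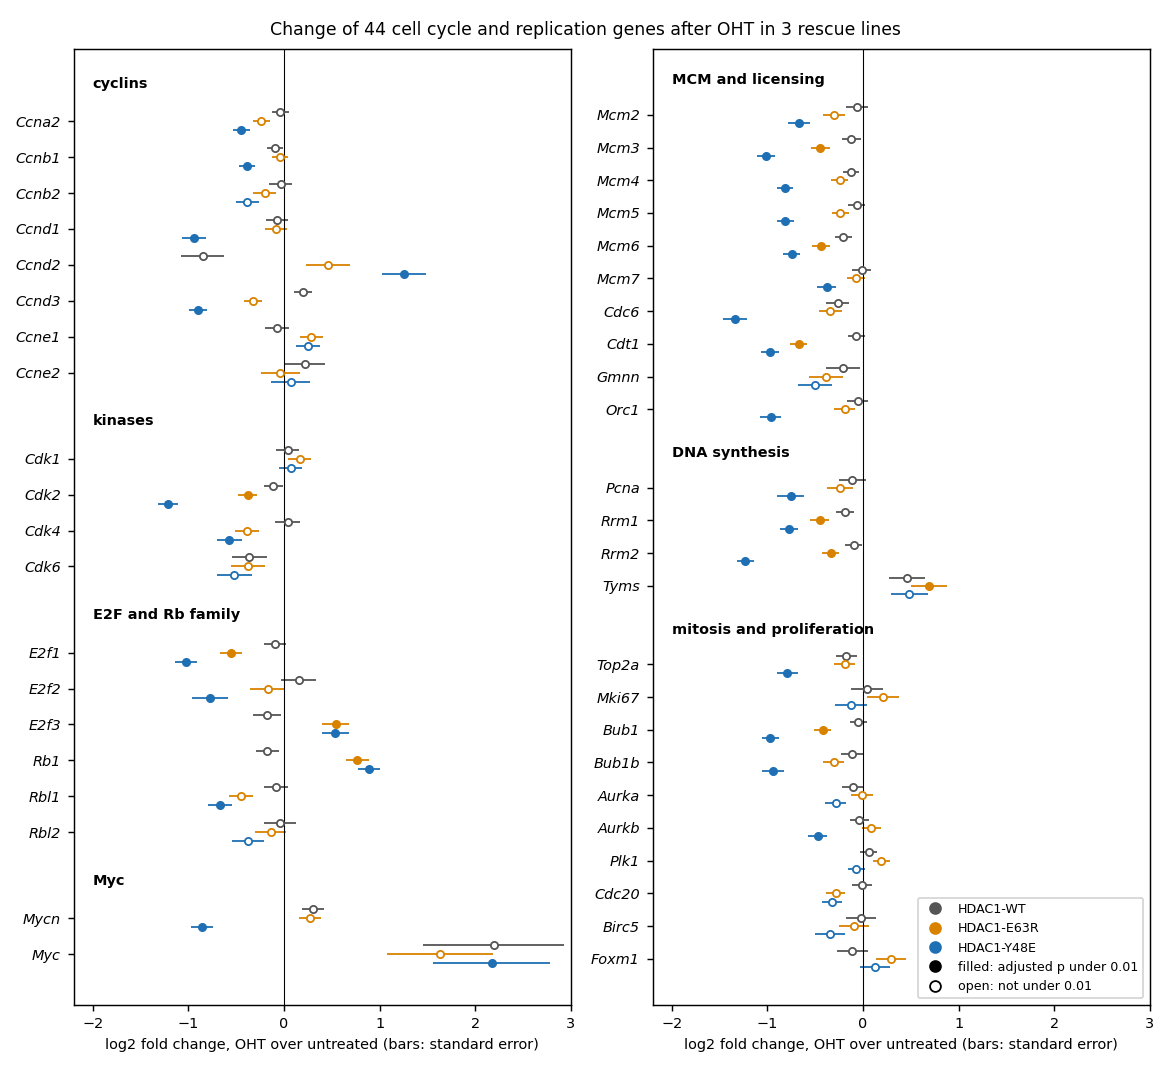
Log2 fold change after OHT (horizontal axis) for each of the 44 genes, grouped by role, in the HDAC1-WT (grey), HDAC1-E63R (orange) and HDAC1-Y48E (blue) lines. Points are edgeR estimates with bars of 1 standard error, filled where the adjusted p is under 0.01, and 26 filled blue points lie left of 0 against 8 orange and 0 grey.

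The genes of the MCM helicase and of licensing gave the most even picture in the HDAC1-Y48E line, with 9 of 10 lower and a median log2 fold change of -0.81. Cdc6, which helps to load the helicase (chr11:98907801-98923940, a GENCODE M21 position on mm10, like those that follow), measured 49.4, 51.3 and 43.6 CPM in the untreated libraries and 19.1, 19.2 and 18.5 after OHT. In the HDAC1-WT line the same gene measured 50.4, 46.6 and 49.0 CPM untreated and 36.4, 38.4 and 46.6 with OHT, and in the HDAC1-E63R line 47.4, 48.7 and 57.3 and 42.1, 40.1 and 39.0. The HDAC1-Y48E libraries with OHT were thus the lowest of all 18, far below their own untreated cells, and the log2 fold change was -1.34 (standard error 0.13, adjusted p = 2.31e-08 by edgeR). Log2 fold changes are written below with ± 1 standard error (SE).

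Mcm3, a subunit of the helicase ring (chr1:20802968-20820312), measured 355, 365 and 386 CPM in untreated HDAC1-Y48E cells and 182, 201 and 164 after OHT. Its levels were 297, 324 and 328 and then 265, 289 and 318 in the HDAC1-WT line, and 428, 454 and 465 and then 318, 345 and 326 in the HDAC1-E63R line. Libraries with and without OHT did not overlap in either mutant line, whereas they overlapped in the HDAC1-WT line, and the log2 fold changes in the mutants were -1.02 ± 0.10 in HDAC1-Y48E and -0.45 ± 0.10 in HDAC1-E63R.

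Cdt1, the partner of CDC6 in loading (chr8:122568015-122573554), measured 206, 209.7 and 195 CPM in untreated HDAC1-Y48E cells and 99.8, 104 and 108 after OHT. In the HDAC1-E63R line it measured 287, 287 and 341 CPM and then 193, 182 and 197, and in the HDAC1-WT line 251, 277 and 257 and then 236, 246 and 266. Cdt1 was the licensing gene with the largest fall in the HDAC1-E63R line, with a log2 fold change of -0.67 ± 0.09 (adjusted p = 1.86e-05 by edgeR), and it fell by 0.97 in the HDAC1-Y48E line. Orc1, the large subunit of the origin recognition complex (chr4:108579423-108614833), measured 93.8, 91.6 and 104 CPM in untreated HDAC1-Y48E cells and 46.7, 50.3 and 51.1 after OHT. Its HDAC1-WT libraries measured 56.1, 63.3 and 64.5 CPM and then 64.6, 57.2 and 54.9, and its HDAC1-E63R libraries 81.3, 83.1 and 88.7 and then 81.7, 73.8 and 66.0. The change of Orc1 was -0.97 ± 0.11 in the HDAC1-Y48E line, where the groups were well apart, and -0.19 ± 0.11 (adjusted p = 0.211 by edgeR) in the HDAC1-E63R line, where they overlapped. The other helicase subunits, Mcm2, Mcm4, Mcm5, Mcm6 and Mcm7, were all lower in the HDAC1-Y48E line, with log2 fold changes between -0.82 (Mcm4) and -0.38 (Mcm7). Mcm7 lost its call in 3 of 6 fits that left out 1 library, and a processed pseudogene, Gm5487, is 97.7% identical to it over 2157 bases. Gmnn, which encodes geminin, did not pass the threshold (-0.50 ± 0.18, adjusted p = 0.0249 by edgeR).

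Of the 4 genes of DNA synthesis, 3 were lower in the HDAC1-Y48E line. Rrm2, the small subunit of ribonucleotide reductase, which makes deoxynucleotides (chr12:24708241-24714146), measured 313, 305 and 308 CPM untreated and 129, 144 and 121 with OHT. The HDAC1-WT libraries held 259, 274 and 302 CPM and then 262, 257 and 260.2, and the HDAC1-E63R libraries 311, 299 and 287 and then 245, 228 and 236. The 3 HDAC1-Y48E libraries with OHT were the lowest of all 18 libraries, and the log2 fold change of -1.23 (standard error 0.09) had the smallest adjusted p among the 44 in this line (5.90e-10 by edgeR). Rrm1, the large subunit, changed by -0.77 ± 0.10, and Pcna, the sliding clamp of the polymerases, by -0.76 ± 0.14. Tyms, thymidylate synthase, went the other way without passing the threshold in this line (0.49 ± 0.19, adjusted p = 0.0439 by edgeR).

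Cyclins and kinases changed in both directions in the HDAC1-Y48E line, with 4 of 8 cyclins lower and 1 higher, and 2 of 4 kinases lower. Cdk2, the partner of cyclins E and A (chr10:128697939-128705031), measured 139, 126 and 126 CPM untreated and 53.0, 54.1 and 61.8 with OHT. Its HDAC1-WT libraries measured 77.0, 77.8 and 81.9 CPM and then 67.5, 72.2 and 79.5, and its HDAC1-E63R libraries 120.0, 103 and 114 and then 82.8, 91.4 and 85.1. The untreated HDAC1-Y48E cells were the highest of the 6 groups and the same cells with OHT the lowest, a log2 fold change of -1.21 ± 0.10 (adjusted p = 5.25e-09 by edgeR). Cdk4, the partner of the D cyclins, changed by -0.57 ± 0.13. Cdk1 and Cdk6 did not pass the threshold, with values of 0.07 ± 0.12 and -0.52 ± 0.18.

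The 3 D cyclins, which couple growth signals to the Rb family, did not move together. Ccnd1 (chr7:144929931-144939925) measured 51.8, 59.5 and 60.5 CPM in untreated HDAC1-Y48E cells and 30.3, 30.7 and 28.5 after OHT. It measured 78.5, 81.5 and 87.2 CPM and then 69.3, 78.6 and 86.3 in the HDAC1-WT line, and 63.3, 58.9 and 57.6 and then 61.2, 48.1 and 60.2 in the HDAC1-E63R line. Treated and untreated libraries were separate in the HDAC1-Y48E line and overlapped in the other lines, and the log2 fold change in HDAC1-Y48E was -0.94 ± 0.12. Ccnd3 also fell there, by 0.90, from 298 ± 18.5 to 159 ± 2.69 CPM (SD, n = 3). Ccnd2 (chr6:127125162-127152193) instead rose, from 7.36, 9.89 and 7.74 CPM to 21.6, 18.1 and 19.9, with a log2 fold change of 1.25 ± 0.23 (adjusted p = 1.47e-04 by edgeR). In the HDAC1-WT line Ccnd2 measured 27.5, 17.7 and 16.9 CPM untreated and 11.6, 12.1 and 10.7 with OHT (-0.85 ± 0.22, adjusted p = 0.121 by edgeR), and in the HDAC1-E63R line 14.8, 9.14 and 8.22 and then 12.7, 15.0 and 16.8. All 3 treated HDAC1-WT libraries lay below all untreated ones, but the difference did not pass the threshold. The mitotic cyclins Ccna2 and Ccnb1 were lower in the HDAC1-Y48E line (-0.45 ± 0.09 and -0.39 ± 0.08). Ccnb2, Ccne1 and Ccne2 did not pass, at -0.38 ± 0.12, 0.25 ± 0.12 and 0.07 ± 0.20.

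In the E2F and Rb family 3 of 6 genes were lower and 2 were higher in the HDAC1-Y48E line. E2f1, an activator of S phase genes (chr2:154559407-154569892), measured 97.2, 86.5 and 92.0 CPM untreated and 47.5, 42.6 and 45.8 with OHT. It measured 62.6, 64.0 and 57.4 CPM and then 53.5, 59.3 and 59.8 in the HDAC1-WT line, and 103, 93.5 and 126 and then 68.2, 75.5 and 75.2 in the HDAC1-E63R line. Groups did not overlap in the mutant lines, and E2f1 changed by -1.02 ± 0.11 with HDAC1-Y48E and by -0.56 ± 0.11 with HDAC1-E63R. E2f2, a related activator, was lower in the HDAC1-Y48E line (-0.78 ± 0.19), although this call was lost in 3 of 6 fits that left out 1 library. E2f3, the third activator, was higher (0.54 ± 0.15), with the call lost in 4 of 6 such fits. Rb1, which encodes the retinoblastoma protein, was higher as well: 37.9, 37.9 and 36.7 CPM untreated became 66.3, 70.6 and 71.2 with OHT, a log2 fold change of 0.89 ± 0.12 (adjusted p = 3.02e-06 by edgeR). Its relative Rbl1 was lower (-0.67 ± 0.13) and Rbl2 did not pass (-0.38 ± 0.17), so the 3 pocket protein genes did not share a direction.

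**Figure D2:**
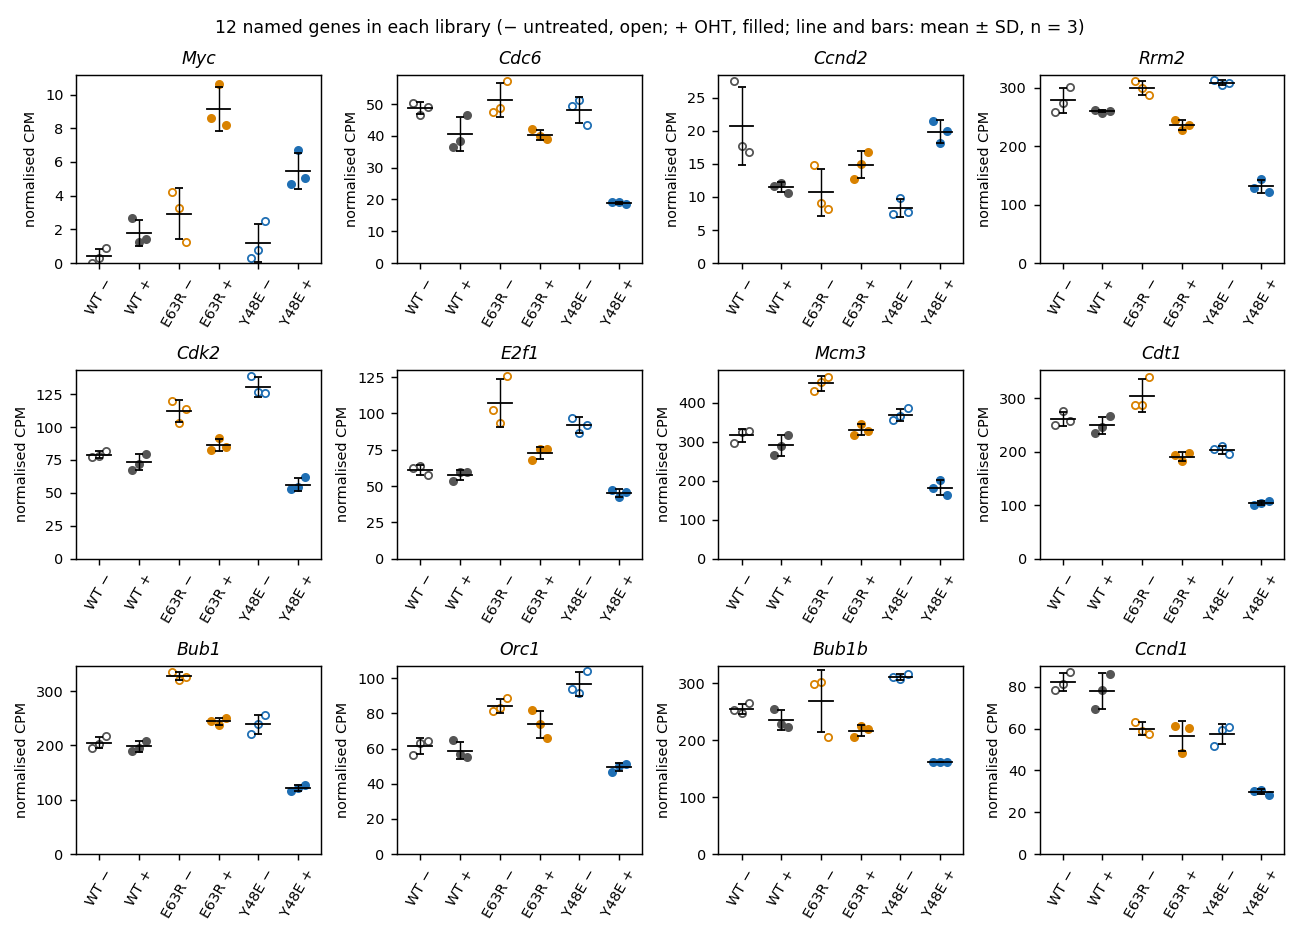
Normalised CPM (vertical axis, from 0) in each library for the 12 genes with the largest log2 fold changes in the HDAC1-Y48E line among those called in a mutant line. Open points are untreated libraries and filled points libraries with OHT, with the mean ± SD of 3 libraries. Treated HDAC1-Y48E cells have the lowest group mean for 10 of the 12 genes, all but Myc and Ccnd2.

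Genes of mitosis and proliferation were less uniform, with 4 of 10 lower in the HDAC1-Y48E line. Bub1, a kinase of the spindle checkpoint (chr2:127801122-127831865), measured 221, 239 and 256 CPM untreated and 117, 121 and 127 with OHT. Its HDAC1-WT libraries held 196, 203 and 217 CPM and then 189.8, 196 and 209, and its HDAC1-E63R libraries 336, 321 and 327 and then 244, 238 and 251. The fall in the HDAC1-Y48E line was -0.97 on the log2 scale (standard error 0.09) and the change in the HDAC1-E63R line -0.42 (standard error 0.09). Bub1b (chr2:118598211-118641591), which encodes the checkpoint protein BUBR1, measured 311, 307 and 317 CPM and then 162, 162 and 162 in the HDAC1-Y48E line. It measured 253, 248 and 266 CPM and then 255, 228 and 224 with wild-type HDAC1, and 298, 302 and 206 and then 206, 225 and 220.3 with HDAC1-E63R. The third untreated HDAC1-E63R library was low for this gene, as it was for Mki67. Top2a, a topoisomerase that untangles chromosomes, and Aurkb, the kinase of the chromosomal passenger complex, were also lower in the HDAC1-Y48E line (-0.79 ± 0.11 and -0.47 ± 0.10). The other 6 did not pass the threshold there. Among them, Mki67, whose protein is the Ki-67 proliferation marker, had a log2 fold change of -0.12 ± 0.17, Plk1 of -0.07 ± 0.09 and Foxm1, a transcription factor of mitotic genes, of 0.13 ± 0.16. Aurka, Cdc20 and Birc5 had values of -0.29 ± 0.11, -0.33 ± 0.10 and -0.35 ± 0.16.

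The Myc genes went in opposite directions in the HDAC1-Y48E line. Mycn, the more abundant of the pair in these ESCs, measured 109, 105 and 118 CPM untreated and 55.1, 66.5 and 61.1 with OHT (-0.86 ± 0.12, adjusted p = 3.38e-06 by edgeR). Myc (chr15:61985391-61990374) was close to the counting limit in some libraries, with raw counts of 3, 7 and 23 in untreated HDAC1-Y48E cells and 47, 74 and 56 with OHT. In the HDAC1-WT line its raw counts were 0, 3 and 9 and then 28, 14 and 16, and in the HDAC1-E63R line 46, 29 and 11 and then 104, 112 and 84. In normalised CPM these were 0.329, 0.796 and 2.47 and then 4.71, 6.70 and 5.03 in the HDAC1-Y48E line, 0, 0.272 and 0.899 and then 2.69, 1.27 and 1.41 in the HDAC1-WT line, and 4.25, 3.27 and 1.26 and then 8.60, 10.7 and 8.21 in the HDAC1-E63R line. Treated libraries were above untreated ones in all 3 lines, and the log2 fold changes were 2.19 ± 0.74 (HDAC1-WT), 1.63 ± 0.56 (HDAC1-E63R) and 2.17 ± 0.61 (HDAC1-Y48E). The HDAC1-Y48E value passed the threshold (adjusted p = 0.00635 by edgeR) and the others did not, but the call was lost in 5 of 6 fits that left out 1 library. At these counts the fitted value also depends on the small count that edgeR adds to each library.

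Levels per kilobase of exon set these changes in scale. In untreated HDAC1-WT cells the highest of the 44 genes were Ccnb2 and Cdc20, at 153 and 151 CPM per kb. The lowest were Cdk6 and Myc, at 0.974 and 0.144 CPM per kb. Mycn stood at 37.5 CPM per kb in the same cells. Among the D cyclins the order was Ccnd3 (47.9), Ccnd1 (17.5) and Ccnd2 (2.20 CPM per kb). After OHT in the HDAC1-Y48E line the same genes stood at 18.2, 6.33 and 2.11 CPM per kb, so that Ccnd2 remained the lowest of the 3 D cyclins per length. The helicase subunits in untreated HDAC1-WT cells lay between 40.6 (Mcm2) and 84.3 CPM per kb (Mcm3).

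In the HDAC1-E63R line 8 of the 44 genes were lower after OHT and 3 were higher, against 6.82% and 7.49% of all genes tested. The 8 that fell were Cdt1, E2f1, Mcm3, Rrm1, Mcm6, Bub1, Cdk2 and Rrm2, and all 8 also fell in the HDAC1-Y48E line. The 3 that rose were Rb1 (0.77 ± 0.12), Tyms (0.69 ± 0.19) and E2f3 (0.54 ± 0.14), of which Rb1 and E2f3 rose in the HDAC1-Y48E line as well. Rb1 measured 33.3, 34.4 and 27.6 CPM untreated and 53.6, 54.6 and 53.9 with OHT, with no overlap. The median log2 fold change of the 44 was -0.20, against 0.03 for all genes. None of the 44 changed more than 2-fold with an adjusted p under 0.01, against 4.74% of all genes higher and 1.18% lower by that limit. In fits that left out 1 library, Rrm2, Tyms and E2f3 lost their calls in 5 of 6, Cdk2 in 4 and Mcm3 in 2. Without the third untreated library, 14 of the 44 were lower and 4 were higher, against 9.63% and 8.84% of all genes tested. Scaling by library totals alone, which raised the median of all genes from 0.03 to 0.23, left 1 lower and 7 higher (with 2.9% and 11.5% of all genes), and a model of the HDAC1-E63R libraries alone called none.

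In the HDAC1-WT line none of the 44 genes passed the threshold after OHT in edgeR or in DESeq2. Among all genes tested 0.0373% were higher and 0.0213% were lower at the adjusted threshold in edgeR. Of the 44, 6 had an unadjusted p under 0.05 in edgeR. The share of all genes at that unadjusted limit was not counted, so the 6 cannot be set against a background. The median log2 fold change of the 44 was -0.07. The widest values were those of Myc (2.19 ± 0.74, adjusted p = 0.259 by edgeR) and Ccnd2, followed by Tyms (0.46 ± 0.19), Cdk6 (-0.36 ± 0.19) and Mycn (0.30 ± 0.11). For Mki67 the value was 0.04 ± 0.17 and for Pcna -0.11 ± 0.14.

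Whether lines differed was tested on the OHT effect in one line minus that in another (an interaction term). Between the HDAC1-Y48E and HDAC1-WT lines the effect was more negative for 18 of the 44 genes and more positive for 2, against 6.77% and 5.84% of all genes tested. The 18 comprise 8 licensing genes (Mcm2 to Mcm6, Cdc6, Cdt1 and Orc1), Rrm1 and Rrm2, Cdk2, Ccnd1 and Ccnd3, E2f1, Top2a, Bub1 and Bub1b, and Mycn. Mycn had the most negative difference, -1.16 ± 0.16, with a value of 0.30 in the HDAC1-WT line, and Rrm2 was next with -1.13 ± 0.13. Ccnd2 and Rb1 had the positive differences, 2.104 ± 0.32 and 1.07 ± 0.17. Myc, although called in the HDAC1-Y48E line, had a difference of -0.02 (adjusted p = 0.994 by edgeR).

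Between the HDAC1-E63R and HDAC1-WT lines the effect was more positive for 1 of the 44 genes and more negative for 1 (2.27% each). Over all genes the shares were 1.44% and 1.01%, so these counts are near the background. The 2 genes were Rb1 (0.94 ± 0.17) and Cdt1 (-0.61 ± 0.13). Between the HDAC1-Y48E and HDAC1-E63R lines the effect was more negative for 8 genes and more positive for none, against 1.53% and 0.415% of all genes. The 8 were Mycn (-1.14 ± 0.16), Cdc6 (-1.002 ± 0.17), Rrm2 (-0.89 ± 0.13), Ccnd1 (-0.86 ± 0.17), Cdk2, Orc1, Mcm5 and Mcm4. These counts depended on the third untreated HDAC1-E63R library: without it, 26 genes had a more negative effect in HDAC1-Y48E than in HDAC1-E63R, against 5.3% of all genes, and 9 differed between HDAC1-E63R and HDAC1-WT. In the latter comparison 2.91% of all genes then had a more positive and 3.64% a more negative effect. The comparisons share libraries, so their counts are not independent of each other.

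Before OHT the mutant lines already differed from the HDAC1-WT line in these genes. In untreated HDAC1-E63R cells 18 of the 44 were higher and 3 were lower than in untreated HDAC1-WT cells, against 9.04% and 7.83% of all genes tested. In untreated HDAC1-Y48E cells 9 were higher and 4 lower, against 6.42% and 5.74%. Mcm2 and Mcm5 had the largest increases among the MCM genes in both lines. Mcm5 measured 230.2, 243 and 245 CPM in untreated HDAC1-WT libraries, 539, 471 and 508 in HDAC1-E63R and 446, 446 and 446 in HDAC1-Y48E, with no overlap between HDAC1-WT and the mutants (1.08 ± 0.09 and 0.90 ± 0.09 on the log2 scale). Mcm2 differed by 1.10 ± 0.12 and 0.96 ± 0.12, Ccne1, cyclin E1, by 0.76 ± 0.13 and 0.67 ± 0.13, and Cdk2 by 0.51 ± 0.10 and 0.72 ± 0.10.

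The genes lower in the untreated mutant lines were the D cyclins, Ccnd1, Ccnd2 and Ccnd3, in both lines, and Cdt1 in the HDAC1-Y48E line. When 1 library was left out, Cdt1 lost this call in 6 of 6 fits. Ccnd1 lost it in 4 of 6 (HDAC1-E63R) and 2 of 6 (HDAC1-Y48E), and Ccnd2 in 2 of 6 (HDAC1-E63R). Calls of raised genes were lost as well. In HDAC1-E63R, Ccna2 and Mcm4 lost theirs in 4 of 6 fits and Pcna and Myc in 3. E2f2 and Rrm1 lost theirs in 2 and Orc1 and Cdk6 in 1. In HDAC1-Y48E, Ccnb1 lost its raised call in 4 of 6. For HDAC1-E63R the lower share of the 44, 6.82%, was not above the 7.83% of all genes. Ccnd3 measured 396, 446 and 420.4 CPM in untreated HDAC1-WT libraries, 322, 273 and 318 in HDAC1-E63R and 307, 310.0 and 276 in HDAC1-Y48E, and neither mutant group overlapped the HDAC1-WT group. Without the third HDAC1-E63R library 20 of the 44 were higher and 5 lower in that line, against 11% and 9.59% of all genes. A model of the compared libraries alone called 3 genes higher and none lower for HDAC1-E63R, against 1.75% and 2.13% of all genes, and 21 higher and 4 lower for HDAC1-Y48E, against 12.2% and 11.4%. The medians of the log2 differences over the 44 were 0.23 for HDAC1-E63R and 0.22 for HDAC1-Y48E. An OHT effect in a mutant line is thus measured from a level that was raised for 18 of the 44 (HDAC1-E63R) or 9 of the 44 (HDAC1-Y48E), and it shares its untreated libraries with these comparisons.

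**Figure D3:**
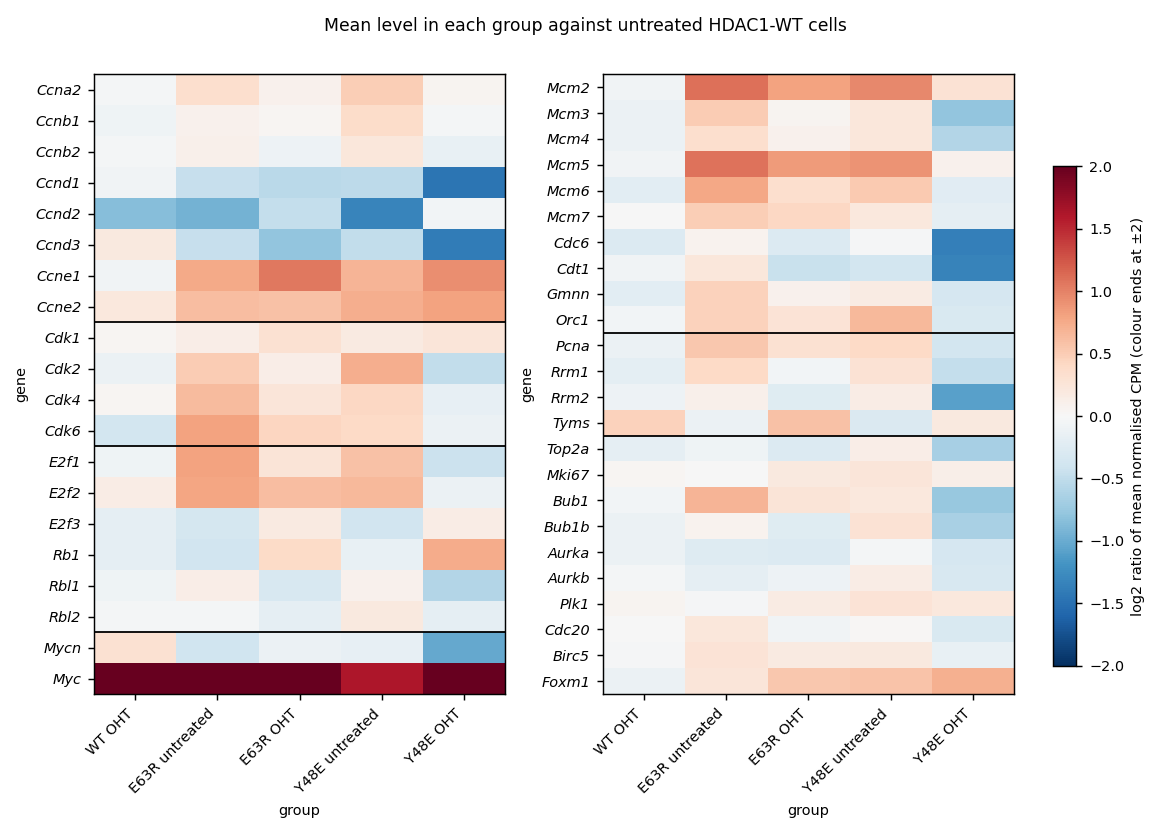
Colour gives the log2 ratio of the mean normalised CPM in each of 5 groups (columns) to that in untreated HDAC1-WT cells, for the 44 genes (rows, with lines between roles); red is higher, blue is lower and the colour scale ends at ±2, which the ratios of Myc exceed in 4 groups. Mcm2 and Mcm5 are red in both untreated mutant lines, Ccnd1 and Ccnd3 are blue in every mutant column, and the HDAC1-Y48E OHT column holds most of the blue.

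For that reason the treated mutant lines were also compared with treated HDAC1-WT cells, a comparison added after the data had been seen. In HDAC1-Y48E cells with OHT, 13 of the 44 genes were lower and 4 higher than in HDAC1-WT cells with OHT, against 15.2% and 16.6% of all genes. The median over the 44 was -0.21. The lower genes were Ccnd3 (-1.60 ± 0.10), Ccnd1 (-1.39 ± 0.12), Mycn (-1.32 ± 0.12), Cdt1 (-1.26 ± 0.09), Cdc6 (-1.09 ± 0.13), Rrm2 (-0.98 ± 0.09), Bub1, Mcm3, Bub1b, Rbl1, Top2a, Mcm4 and Cdk2. The higher genes were Ccne1 (0.99 ± 0.13), Rb1 (0.91 ± 0.12), Foxm1 (0.81 ± 0.16) and Ccnd2 (0.79 ± 0.22). When 1 library was left out, Ccnd2 lost its call in 6 of 6 fits, Cdk2 in 4 and Rbl1 in 3. Mcm2 and Mcm5, which had fallen within the HDAC1-Y48E line, did not pass the threshold against treated HDAC1-WT cells. Mcm5 measured 248, 274 and 239 CPM against 222, 214 and 250.2, and Mcm2 361, 364 and 311 against 271, 246 and 291, where all 3 HDAC1-Y48E libraries were the higher ones. In HDAC1-E63R cells with OHT, 9 genes were higher and 4 lower than in treated HDAC1-WT cells, against 10.5% and 8.79% of all genes. The 4 lower genes were Ccnd3, Mycn, Ccnd1 and Cdt1, and the 9 higher genes were Ccne1, Mcm2, Mcm5, Mcm6, Mcm7, Cdk6, Rb1, Foxm1 and Myc. The lower share of the 44, 9.09%, was near the 8.79% of all genes. When 1 library was left out, Mycn and Foxm1 each lost their call in 5 of 6 fits. Cdt1 and Myc lost it in 4, Ccnd1 and Mcm7 in 3, Cdk6 in 2 and Rb1 in 1.

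Further genes of the same pathways, none of them among the 44, were counted in 5 lists. In the HDAC1-Y48E line 18 of 40 genes of licensing and the replication fork were lower after OHT and none was higher, with a median log2 fold change of -0.40. Examples are Pold2 and Pold1, subunits of DNA polymerase delta (-1.31 ± 0.09 and -1.15 ± 0.10), Mcm10, which helps to activate the helicase (-1.18 ± 0.10), and Uhrf1, which maintains DNA methylation behind the fork (-0.99 ± 0.15). Of 12 genes of nucleotide supply 6 were lower and none higher (median -0.44), led by Paics and Gart of purine synthesis (-1.24 ± 0.09 and -1.06 ± 0.09). Of 30 genes of mitosis and the spindle 17 were lower and none higher (median -0.41), among them the cohesin protector Sgo1 (-0.98 ± 0.11) and the kinesin Kif2c (-0.94 ± 0.09). Of 32 further regulators 13 were lower and 1 was higher (median -0.39). That 1 was Mxd4, which encodes a MAX partner that opposes MYC (2.87 ± 0.26). The lower ones include Lin52 (-1.67 ± 0.18), a part of the DREAM and MuvB complexes, and the checkpoint kinase Chek1 (-1.49 ± 0.13). These counts stand against 14.7% lower and 16.2% higher over all genes tested in this line.

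In the HDAC1-E63R line the same lists had 4 of 40, 3 of 12, 4 of 30 and 7 of 32 genes lower, and 0, 0, 1 and 2 higher, against 6.82% lower and 7.49% higher over all genes in this line. The 4 lower genes in each of the first and the third list are a small count. The medians were -0.11, -0.27, -0.17 and -0.13. Pold1 (-0.85 ± 0.10), Pold2 (-0.83 ± 0.09), Paics (-0.65 ± 0.09) and Lin52 (-1.08 ± 0.18) fell there, while Mxd4 (1.92 ± 0.27) and the kinetochore gene Cenpf (0.52 ± 0.14) rose. In the HDAC1-WT line no gene of the 5 lists passed the threshold, in either direction, in edgeR.

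Inhibitors of cyclin-dependent kinases had more rises than falls in the HDAC1-Y48E line. Of 8 genes, 4 were higher and 1 lower in the HDAC1-Y48E line, and 2 were higher and 2 lower in the HDAC1-E63R line. Over all genes 16.2% were higher and 14.7% lower in the former and 7.49% and 6.82% in the latter, and with 8 genes each count is small. Cdkn1c (p57) rose by 2.79 ± 0.16 in HDAC1-Y48E and by 1.25 ± 0.15 in HDAC1-E63R, and Cdkn2a, which encodes p16INK4a and p19ARF, by 1.60 ± 0.20 and 1.02 ± 0.21. Cdkn1b (p27) fell in both, with values of -1.92 ± 0.10 and -1.26 ± 0.10. Cdkn2b (p15) rose in HDAC1-Y48E (2.47 ± 0.36) and Cdkn1a (p21) fell in HDAC1-E63R (-0.52 ± 0.11).

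**Figure D4:**
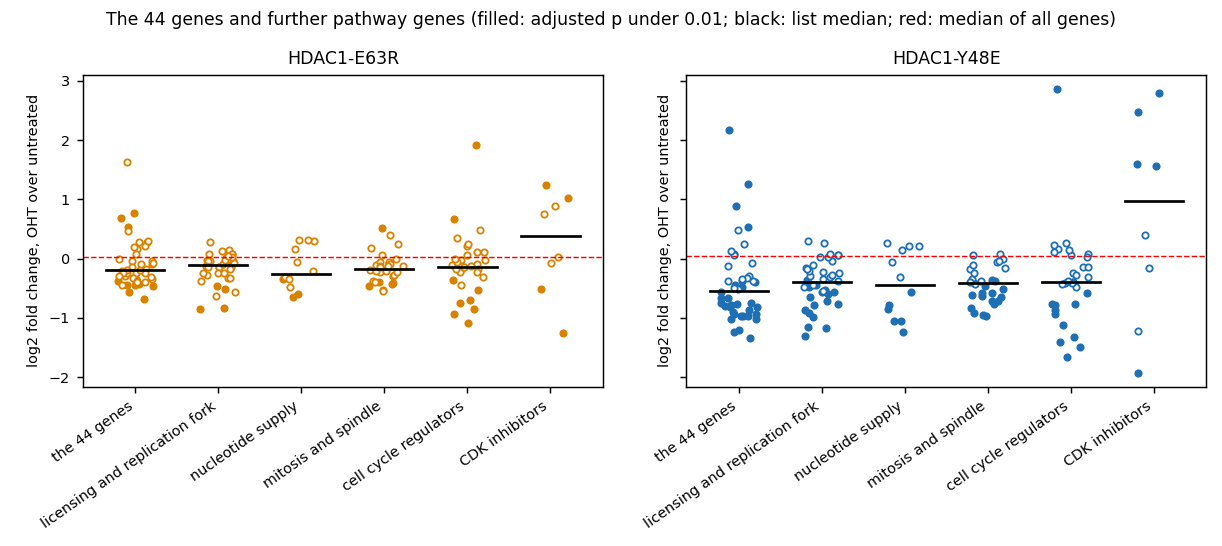
Log2 fold change after OHT (vertical axis) of single genes in the HDAC1-E63R (left) and HDAC1-Y48E (right) lines for the 44 genes and 5 further lists; filled points have an adjusted p under 0.01, black bars are list medians and the red dashed line is the median of all genes tested. In HDAC1-Y48E the medians of the 44 genes and of 4 lists lie between -0.55 and -0.39, and that of the kinase inhibitors at 0.98.

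The E2F site and the direction of change can be set side by side for the 34 genes with promoter sequence, as a description. In the HDAC1-Y48E line 11 of the 13 genes with a site were lower, 1 was higher (E2f3) and 1 did not pass (Cdk1), and their median log2 fold change was -0.81. Of the 21 without a site, 11 were lower and 10 did not pass, with a median of -0.52. For the NF-Y box, 16 of 23 genes with it and 6 of 11 without it were lower. For the cell cycle homology region, 5 of 13 with it and 17 of 21 without it were lower. A match is a run of letters in a window, and binding was not measured.

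Markers of cell identity moved in the same samples. The 7 ESC markers together fell from a range of 4959 to 5112 CPM to a range of 2172 to 2309 CPM after OHT in the HDAC1-Y48E line, where 7 of 7 were lower. In the HDAC1-E63R line they lay between 4358 and 7448 CPM untreated and between 3560 and 3893 CPM with OHT, with 4 of 7 lower. That untreated group includes the library that stood apart, and Dppa5a measured 2340 ± 1193 CPM in it (SD, n = 3). The marker values are not given without that library, so the size of this fall is uncertain. With wild-type HDAC1 the 7 ESC markers lay between 6107 and 6426 CPM and then between 6335 and 6635 CPM, with none called. Trophoblast markers, 7 genes, summed to 83.7 to 93.0 CPM and then to 134 to 148 CPM in HDAC1-Y48E, and to 68.4 to 93.1 CPM and then to 172 to 181 CPM in HDAC1-E63R. In HDAC1-WT cells they summed to 223 to 246 CPM and then to 247 to 280 CPM, also without overlap. Tfap2c held the largest part of each trophoblast sum, with means of 59.4 CPM untreated and 54.1 CPM with OHT in HDAC1-Y48E. Cdx2, close to the counting limit, was also lower with OHT there. Krt7 (17.8 and then 47.8 CPM), Hand1 (1.70 and then 16.4 CPM), Eomes, Gata3 and Elf5 had higher means. In HDAC1-E63R the mean of Tfap2c was 55.6 and then 102 CPM, and only Cdx2 had a lower mean with OHT. Fibroblast markers, also 7, summed to 23.0 to 27.1 CPM and then to 81.6 to 94.2 CPM in HDAC1-Y48E, and to 12.9 to 18.8 CPM and then to 48.5 to 56.5 CPM in HDAC1-E63R, with Dcn and Lum at 0 in 4 of the 6 groups. Primitive endoderm markers, 7 genes, summed to 17.96 to 25.7 CPM and then to 46.3 to 51.8 CPM in HDAC1-Y48E, and to 12.4 to 20.8 CPM and then to 22.3 to 27.1 CPM in HDAC1-E63R. In HDAC1-WT cells they summed to 41.1 to 43.5 CPM and then to 36.0 to 42.1 CPM. The largest part of the rise in the HDAC1-Y48E sum was Dab2, with means of 8.199 CPM untreated and 30.3 CPM with OHT. Gata4 and Gata6 did not rise there, with means of 7.08 and 1.59 CPM untreated and 5.47 and 1.55 CPM with OHT. The means of Sox17, Sox7 and Pdgfra were higher with OHT in that line, so the sum does not stand for every marker in the list. The sum of the fibroblast markers was higher with OHT in HDAC1-WT cells too, at 23.4 to 25.2 CPM and then 35.9 to 41.8 CPM without overlap, with Thy1 at 16.6 ± 2.14 and 30.6 ± 5.27 CPM (SD, n = 3). In HDAC1-Y48E 4 of 7 trophoblast, 2 of 3 tested fibroblast and 1 of 6 tested primitive endoderm markers were higher, and in HDAC1-E63R 5, 2 and 1. Over all genes tested 16.2% were higher and 14.7% lower in HDAC1-Y48E, and 7.49% and 6.82% in HDAC1-E63R. The primitive endoderm count in HDAC1-Y48E is near that share, and each list is small. The part of these marker shifts in the changes of the 44 genes was not tested. In bulk RNA, fewer cells in a phase or of a type and less RNA per cell cannot be told apart.

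Some levels carry uncertainty from the counting. Whether the counting used strand was not given in the sources used here, and exons on the opposite strand overlap 23.4% of the exon bases of Ccnd1 (with LTO1), 19.7% of Cdk4 (with Tspan31), 17.4% of Ccne2 (with Ints8) and 10.8% of Orc1 (with Gm12743). Processed pseudogenes share long stretches with Ccnb1 (99.2% identity with Ccnb1-ps), Pcna (99.2% with Pcna-ps2 over 781 bases), Ccnd3 (Ccnd3-ps), Rrm2 (Gm48455) and Cdc6 (95.2% with Gm9430 over 1528 bases), and reads could be split between them.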

How the data were processed

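RNA-seq libraries of 3 rescue lines of Hdac1/2lox/lox mouse ESCs, untreated and with OHT, were analysed (6 groups of 3, given as separate replicates by the labels; p-values measure the spread between these samples). The deposited values are raw read counts per gene symbol. The authors mapped reads to mm10, and the submitters' processing notes name HISAT2 2.1.0, SAMtools 1.9 and HTSeq; the annotation and strand setting are not given in the sources used here. Entries that name no gene (59.4% to 61.2% of a library) were left out.

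Genes were filtered with filterByExpr by group and scaled with TMM factors, and 1 quasi-likelihood model (edgeR 4.0.16, limma 3.58.1, R 4.3.3) held all 18 libraries, with Benjamini-Hochberg adjustment over 18791 genes and a threshold of 0.01. The standard error of a log2 fold change was its size divided by the root of F. Exon lengths and positions came from GENCODE M21 and promoters from RefSeq. The model was also run on simulated counts, in which every gene had the same spread and no library stood apart. That run therefore does not measure the error of the calls in these data. The 44 genes, the pathway, marker and motif lists and the tests were chosen with earlier results of these data known. Values in every library were given for the 12 genes with the largest log2 fold changes in the HDAC1-Y48E line among those called after OHT in a mutant line, with Rb1, Mycn, Mcm2, Mcm5 and Ccnd3 added after their values were seen; at most 4 genes of each further list were named per line. Alternatives were other scalings, no filter, DESeq2 1.42.0, a replicate block, only the libraries compared, and each library left out.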

Additional observations from a re-analysis of the deposited data

Results flagged for a closer look

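The results listed here are those of the 44 genes whose OHT effect differed between 2 lines by the test of the difference itself (edgeR quasi-likelihood interaction test, Benjamini-Hochberg adjusted over 18791 genes). Values are the OHT effect in the first line minus that in the second, on the log2 scale.

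For HDAC1-Y48E minus HDAC1-WT, 20 genes differed. In licensing the differences were -1.08 for Cdc6, -0.91 for Orc1, -0.90 for Cdt1, -0.89 for Mcm3, -0.75 for Mcm5, -0.69 for Mcm4, -0.61 for Mcm2 and -0.54 for Mcm6. In DNA synthesis they were -1.13 for Rrm2 and -0.58 for Rrm1. Among cyclins and kinases they were -1.10 for Cdk2, -1.10 for Ccnd3, -0.86 for Ccnd1 and 2.104 for Ccnd2. E2f1 had -0.93 and Rb1 1.07. The mitotic genes Bub1, Bub1b and Top2a had -0.92, -0.83 and -0.62, and Mycn had -1.16. The adjusted p lay between 1.09e-06 (Rrm2) and 0.00956 (Mcm2). Each of Mcm2, Mcm6, Rrm1 and Top2a lost its call without 1 library, Mcm2 in 11 of 12 such fits.

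For HDAC1-E63R minus HDAC1-WT, Rb1 (0.94, adjusted p = 0.00143) and Cdt1 (-0.61, adjusted p = 0.00671) differed, and Cdt1 lost its call in 9 of 12 fits that left out 1 library. With 1 gene in each direction, the counts are near the shares of all genes, 1.44% and 1.01%.

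For HDAC1-Y48E minus HDAC1-E63R, the differences were -1.14 for Mycn, -1.002 for Cdc6, -0.89 for Rrm2, -0.86 for Ccnd1, -0.83 for Cdk2, -0.78 for Orc1, -0.58 for Mcm5 and -0.57 for Mcm4. The adjusted p lay between 1.22e-04 (Rrm2) and 0.00861 (Mcm5). These use the untreated HDAC1-E63R library that stood apart, and without it 26 genes differed in place of 8. The share of all genes with a more negative effect was 5.3% without it and 1.53% with it.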

How the results depend on the processing

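No call on the 44 genes in the OHT effects, their differences or the comparisons of lines changed direction under the alternatives run (for the comparisons of lines, a check added after seeing the data). In the HDAC1-Y48E line the 26 lower genes were 24 to 26 when 1 library was left out, 26 in DESeq2 and 20 with library totals, while the 4 higher genes were 2 to 3 when 1 library was left out (2 without untreated library 1 or 2 or OHT library 2). Of the 30 called there, 30 kept the call in DESeq2 and 24 with library totals. In the HDAC1-E63R line the 8 lower genes became 1 with library totals, 0 with only the libraries compared and 5 to 14 when 1 library was left out, and the 3 higher ones became 7, 0 and 1 to 4. There were 14 lower without untreated library 3 and 5 without OHT library 1 or 3, and 1 higher without untreated library 1 or any OHT library. With only the libraries compared, 31 genes differed in OHT effect between HDAC1-Y48E and HDAC1-WT (20 in the main model), 0 between HDAC1-E63R and HDAC1-WT (2) and 4 between HDAC1-Y48E and HDAC1-E63R (8). Of all genes, 9.9% were then more positive and 12.9% more negative in the first comparison (5.84% and 6.77% in the main model). The shares were 0.576% and 0.347% in the second and 0.342% and 0.871% in the third. The same setting gave 3 and 25 genes for untreated HDAC1-E63R and HDAC1-Y48E cells against HDAC1-WT (21 and 13), and 20 for HDAC1-E63R against HDAC1-WT with OHT (13). In that order, the shares of all genes higher and lower were 1.75% and 2.13%, 12.2% and 11.4%, and 17.2% and 16.3%. DESeq2 gave 5 for the difference of HDAC1-E63R from HDAC1-WT (2.66% of all genes more positive, 2.25% more negative). It gave 14 for that of HDAC1-Y48E from HDAC1-E63R (1.59% and 2.7%). Library totals gave 1 for HDAC1-E63R against HDAC1-WT (1.74% and 0.442%). Leaving out 1 library gave 1 to 9 and 4 to 26 for these 2 counts, 12 to 25 for untreated HDAC1-E63R against HDAC1-WT, and 6 to 11 for the same lines with OHT. The 12 came without untreated HDAC1-WT library 1, the 6 without OHT-treated HDAC1-WT library 3, and the 9 and 26 without untreated HDAC1-E63R library 3. The cause of these shifts was not tested. Library totals moved the median of all genes from 0.05 to 0.25 in HDAC1-Y48E and from 0.03 to 0.23 in HDAC1-E63R, and the shares of all genes called higher and lower to 22.2% and 9.51% in HDAC1-Y48E and to 11.5% and 2.9% in HDAC1-E63R. Same-numbered untreated and OHT libraries of a line showed little shared deviation (correlations from -0.03 to 0.07 over 9 pairs), and the main model did not pair them. Libraries of different lines were not compared in this way. Such correlations cannot exclude a shared day or passage. A replicate block kept 29 of the 30 calls in HDAC1-Y48E, losing Myc (adjusted p = 0.01001), and 9 of 11 in HDAC1-E63R.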
